A study of Caenorhabditis elegans with 40 samples.

Results

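Old wild-type Caenorhabditis elegans were compared with old animals that lack a working octr-1 gene, both kept at 15 °C and collected on day 24 of adulthood. The comparison holds 10 of the 40 libraries of the series, 5 of the wild-type strain N2 and 5 of the mutant carrying octr-1(ok371), and it is described over all genes that could be tested, 15856 of the 42048 features in its table. Polyadenylated RNA of whole animals grown on E. coli OP50 was sequenced with a stranded kit. Old animals at 20 °C (day 14) and 25 °C (day 9), with 5 libraries of each genotype, are used here only where the genotype effect at 15 °C is set against theirs. Temperature and day of collection change together between these groups and cannot be told apart. By its title the series asks how temperature, aging and OCTR-1 are related. The 5 mutant libraries at 20 °C and the 5 at 25 °C carry conflicting names: each appears in 3 deposited tables, and the table of 25 against 20 °C mutants names them the other way round. They were assigned as the other 2 tables name them, and every effect at 20 or 25 °C and every difference from it rests on that assignment.

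Octopamine is the invertebrate counterpart of noradrenaline, made from tyrosine by way of tyramine and released by a few neurons. OCTR-1 is a G protein-coupled receptor for octopamine made in sensory neurons, through which the nervous system of C. elegans is known to restrain innate immune and protein-folding responses in other tissues. Temperature is itself sensed by neurons, and low temperature is known to lengthen the life of this animal.

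octr-1 was measured in every library, and its values below are normalized values, which are reads divided by the size factor of the library. The wild type had 187, 182, 183, 203 and 179 and the mutant 38.1, 44.5, 41, 39.7 and 53.2. No mutant library reached the wild-type range, and the fall was 4.26-fold (log2 fold change -2.09 ± 0.11 SE, limma adjusted p = 4.86e-11). At 20 and 25 °C the log2 fold change was -2.73 ± 0.11 and -2.73 ± 0.10, so that the fall was less deep at 15 °C (differences 0.64 ± 0.16 and 0.64 ± 0.14, limma adjusted p = 0.00614 and 0.000893). Counts per gene do not show whether the remaining reads lie inside the deleted stretch.

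At 15 °C, 51.1% of the tested genes passed the limma test (adjusted p under 0.05), with 24.1% higher in the mutant and 27% lower. These shares are the background for every list below, since a list that follows them says nothing particular about its genes. Most changes were small: the median fold of the called genes was 1.29 and 70.5% of them changed by less than 1.5-fold. Genes at least 2-fold higher (3.29% of those tested) had a median mean value of 27.5 and genes at least 2-fold lower (1.92%) one of 61.8, against 279 over all tested genes. In 35.2% of the tested genes the 5 mutant and the 5 wild-type libraries did not overlap. Libraries held 29.1 to 34.5 M reads in genes in the wild type and 29.4 to 34.2 M in the mutant, and reads fell in 21845 to 23031 and 23363 to 23755 features. The first principal component, with 70.8% of the variance, separated the genotypes, while wild-type replicate 1 stood apart on the second (9.84%) and mutant replicate 1 on the third (5.94%). The labels do not say that replicates were separate cultures, and the p-values rest on how much these 5 samples of a group vary, a variation that could be technical only.

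The size of the effect followed the annotated length of the transcript, which bears on many of the lists. Among the 15518 tested genes with a length, 14.0% were higher and 39.5% lower in the shortest of 5 length classes (median 537.5 bases), against 44.0% higher and 12.9% lower in the longest (median 2985.5 bases). The median log2 fold change rose from -0.15 through -0.06, -0.02 and 0.01 to 0.10 across the classes. Over genes with a mean value of at least 100, Spearman's rho between length and log2 fold change was 0.39 (9840 genes of the same 10 libraries, given as a description), and it was 0.31 at 20 °C and -0.11 at 25 °C. For each library the median log2 deviation of the longest class minus that of the shortest was taken, over genes with a mean value of at least 100. It was -0.19 to -0.12 in the wild type and 0.07 to 0.21 in the mutant, with no overlap. The part of RNA quality in this was not tested. For many of the lists that depend on it, the count after centring each gene on the median of genes of like length and level, an alternative chosen after seeing the data, is given beside the list's count. In that fit 3605 genes were higher and 3564 lower of 15518.

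**Figure D1:**
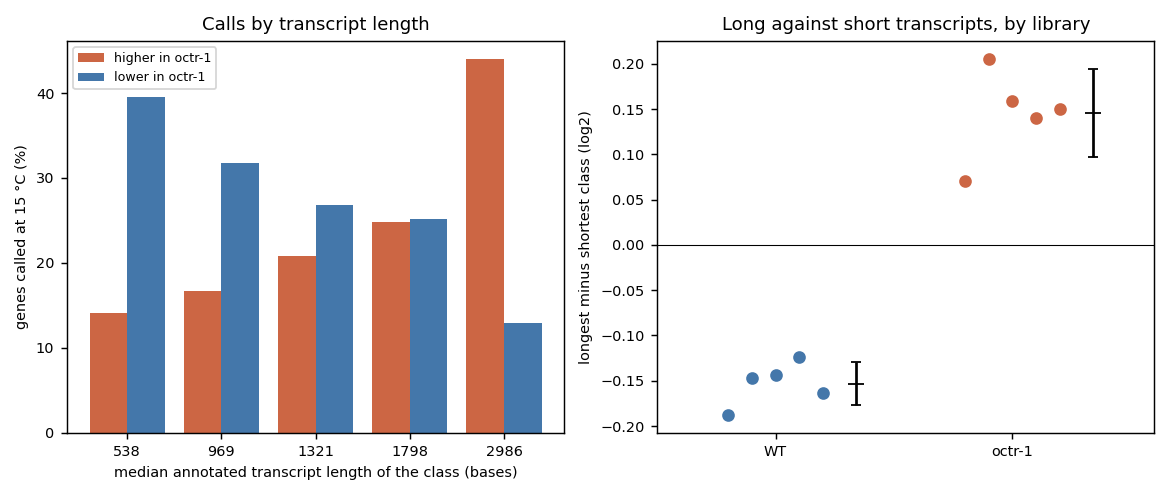
Left, share of tested genes called higher or lower in octr-1 mutants at 15 °C in each of 5 classes of annotated transcript length, labelled by the median length in bases. Right, median deviation of the longest minus that of the shortest class in each library (points), over genes with a mean value of at least 100, with mean and SD (n = 5 per group). Calls shift from lower to higher with length, and all mutant libraries lie above all wild-type libraries.

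Within octopamine and tyramine signalling the enzymes and the vesicle transporter changed, while the other octopamine receptors did not pass the test. tbh-1, the tyramine beta-hydroxylase that makes octopamine, had 5743, 5765, 5640.2, 5932 and 5833 in the wild type and 3739, 4111, 3474, 4543 and 4180.2 in the mutant. Every mutant library was below every wild-type library, a 1.45-fold fall (-0.53 ± 0.055, limma adjusted p = 1.13e-06), whereas the log2 fold change at 20 °C was 0.014 ± 0.042 (difference -0.55 ± 0.069, limma adjusted p = 3.5e-05). The difference of tbh-1 from the effect at 25 °C did not pass (0.14, limma adjusted p = 0.0721), but it did with a replicate block (limma adjusted p = 0.0405). tdc-1, the tyrosine decarboxylase one step earlier, was 1.14-fold higher (6143 ± 127 against 6985 ± 297, SD, n = 5). cat-1, the vesicular monoamine transporter, rose 1.64-fold, from 48.6 ± 4.63 to 80.1 ± 2.49, without overlap. Among receptors, tyra-2 for tyramine rose 1.32-fold (0.40 ± 0.11, limma adjusted p = 0.00619), and this call was lost after length centring (0.23, adjusted p = 0.0972). The octopamine receptors ser-3 (0.017 ± 0.062) and ser-6 (0.18 ± 0.17), the tyramine receptors tyra-3 (-0.12 ± 0.089) and ser-2 (0.38 ± 0.19) and the tyramine-gated channel lgc-55 (0.19 ± 0.11) did not pass. amx-2, a monoamine oxidase, was 1.22-fold lower with overlapping groups (limma adjusted p = 0.019), and the call was lost without mutant replicate 2 (-0.23, adjusted p = 0.0648) or 3 (-0.24, adjusted p = 0.0579). Of all 12 members, 3 were higher and 4 lower, or 2 lower without mutant replicate 2 or 3. The 4 lower members are octr-1, tbh-1, amx-2 and another that is not described here.

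Of the 5 annotated protein-coding genes on either side of octr-1, 8 were tested and 5 were called, where 51.1% of all tested genes were called. The nearest protein-coding gene on one side, T21F4.1, was 1.39-fold lower (492 ± 21.2 against 354 ± 37.3), T22B7.4 1.24-fold and T22B7.3 1.37-fold lower, all without overlap, and sulp-2 1.18-fold lower with overlap. The sulp-2 call was lost without wild-type replicate 2, 3 or 4 or mutant replicate 2, 3 or 5 (adjusted p = 0.0542 to 0.105), with DESeq2 (adjusted p = 0.0614) and without the filter (0.0798). mec-2, a stomatin of the touch receptor channel, was 1.36-fold higher, a call lost after length centring (0.16, adjusted p = 0.186). T22B7.3 went the other way at 20 °C (0.23 ± 0.085) and 25 °C (0.79 ± 0.07, limma adjusted p of the differences 0.000125 and 4.68e-09).

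Serotonin and dopamine genes gave 5 higher and 2 lower of 17. dop-5, a dopamine receptor-like gene, had 98.5, 80.0, 97.2, 91.6 and 93 in the wild type and 176, 179, 167, 158 and 177 in the mutant (1.86-fold, limma adjusted p = 2e-07). The groups stood far apart, and ser-4, an inhibitory serotonin receptor, rose 1.55-fold as well. The 2 members that fell make the amines: bas-1, the aromatic amino acid decarboxylase, was 1.45-fold lower and cat-4, the GTP cyclohydrolase that supplies the cofactor, 1.23-fold lower, the latter not called after length centring (-0.17, adjusted p = 0.0748).

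Genes of the synapse and of dense-core vesicles were higher in the mutant. Of 35 tested genes of the synaptic machinery, 25 were higher and 2 lower, with a median log2 fold change of 0.27; 23 of them lie in the longest length class, and 21 higher and 4 lower remained after length centring. ida-1, a membrane protein of dense-core vesicles, had 1843, 1654, 1818, 1772 and 1682 in the wild type and 2520.1, 2572, 2509.8, 2459 and 2552 in the mutant (1.44-fold, limma adjusted p = 5.42e-09). These libraries did not overlap, and neither did those of egl-3, the convertase that cuts neuropeptide precursors, which rose from 1032 ± 105 to 1491 ± 33.3 (1.45-fold). snb-1, synaptobrevin, did not pass (-0.10 ± 0.045), but it was called lower with scaling by library size (adjusted p = 0.042) and without wild-type replicate 2 or 4 (0.0203 and 0.0239). The summed value of 8 general neuron markers was 7823 to 8393 in the wild type and 9317 to 9783 in the mutant, with 5 of 8 higher and 1 lower, or 3 higher without wild-type replicate 5 or mutant replicate 4. In RNA of whole animals, more cells of a type and more RNA per cell cannot be told apart, here or in any list below.

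Neuropeptide genes did not share this direction: 12 of 63 were higher and 16 lower, shares close to the background, and after length centring 17 and 10 of 59. flp-1, an FMRFamide-like peptide gene, had 261, 183, 261, 286 and 229 in the wild type and 111, 104, 108, 151 and 114 in the mutant. The mutant libraries were all below the wild type, at 2.06-fold less (-1.05 ± 0.12, limma adjusted p = 1.47e-06). flp-17 was 1.88-fold lower, flp-14 1.44-fold lower and nlp-40, an intestinal peptide that times defecation, 1.43-fold lower. Rises were seen in nlp-16 (1.66-fold, 945 ± 31.5 to 1569.8 ± 52.4), flp-16 (1.66-fold), flp-5 (1.37-fold) and flp-33 (1.88-fold), each without overlap.

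Insulin-like peptides, the ligands of the DAF-2 receptor, were more often lower, with 6 higher and 12 lower of 27 tested and a median of -0.29. ins-22 had 297, 275, 274, 292 and 291 in the wild type and 161, 114, 95, 116 and 96 in the mutant, with a wide gap between the groups and mutant replicate 1 the highest of the mutant libraries. This 2.49-fold fall (-1.31 ± 0.11, limma adjusted p = 5.32e-08) stood against rises of 0.34 ± 0.084 at 20 °C and 0.96 ± 0.078 at 25 °C. ins-11 behaved alike at lower counts, with 20.3, 21.99, 25.6, 18.5 and 20.2 against 7.79, 7.07, 13, 7.32 and 10.4, a 2.25-fold fall, and 1.4 ± 0.28 at 20 °C. Most mutant values of ins-11 were under 10, so it entered the test only through the wild-type libraries, and its fall is given as a description. ins-7 fell 2.11-fold and ins-2 1.42-fold. In the other direction, ins-37 rose 2.26-fold (35.4 ± 4.93 to 81.2 ± 10.9), ins-5 1.7-fold, ins-1 1.45-fold and daf-28, an agonist of DAF-2, 1.49-fold with 1 overlapping library. At 20 °C, 10 of 26 insulin genes were higher and 4 lower (22.8% and 24.7% of all genes tested there), and the difference of the effects passed for 1 member above and 9 below 0 of 26, against 8.92% and 11.3% of all genes. 24 of the 27 have a transcript in the shortest class, and 7 were higher and 9 lower after length centring.

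**Figure D2:**
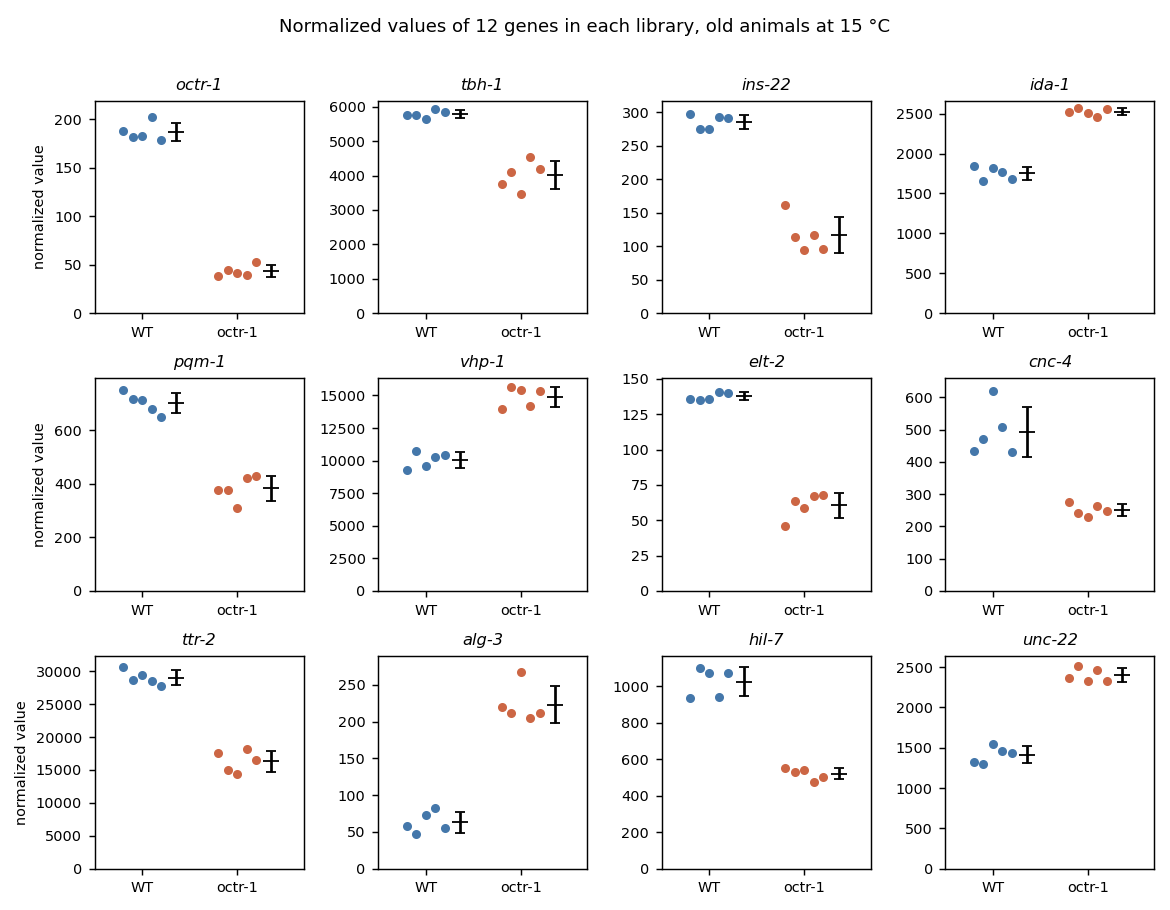
Normalized values of 12 genes in each of the 5 wild-type and 5 octr-1 libraries at 15 °C (points), with mean and SD (bars), on axes that start at 0. The groups do not overlap in any panel. octr-1, tbh-1, ins-22, pqm-1, elt-2, cnc-4, ttr-2 and hil-7 are lower, and ida-1, vhp-1, alg-3 and unc-22 higher in the mutant.

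Of 1339 genes for chemoreceptors, only 182 passed the filter on low values. 38 of these were higher and 13 lower, and the count of higher members moved to 90 of 1307 without the filter and to 8 of 26 with a stricter one, as the number tested changed. srr-4 rose 1.56-fold, from 3636 ± 133 to 5671 ± 345. str-183 rose 2.22-fold, while str-176 (1.97-fold), str-163 (2.87-fold) and srg-23 (1.72-fold) were lower, each without overlap. TRP channels, which carry signals of many sensory neurons, gave 5 higher and 2 lower of 14, and 8 were higher without wild-type replicate 2. osm-9, needed for smell, touch and osmotic avoidance, had 137, 128, 143, 112 and 141 in the wild type and 210.4, 206, 176, 216 and 212 in the mutant (1.54-fold, limma adjusted p = 1.41e-05), with mutant replicate 3 lowest but still above the wild type. trp-4, a mechanosensory channel, rose 1.35-fold and gon-2, a channel of gonad and intestine, 1.23-fold. gtl-1, its intestinal partner for magnesium uptake, fell 1.58-fold (735 ± 37.3 to 464 ± 22.6).

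Regulators of lifespan and stress resistance were higher more often than the background. Of 32, 19 were higher and 5 lower; 20 lie in the longest class, and 15 and 6 remained after length centring. daf-2, the insulin receptor, had 5899, 5694, 6164, 5688 and 5831 in the wild type and 7761, 8313, 8125, 8489.5 and 7794 in the mutant, a 1.38-fold rise without overlap (limma adjusted p = 6.8e-09). daf-12, the steroid hormone receptor, was at 967, 906, 997, 927 and 961 and 1503, 1504, 1496, 1432 and 1542, again without overlap (1.57-fold). Several transcription factors rose as well: daf-16 1.19-fold, skn-1 1.18-fold, hsf-1 1.16-fold, atfs-1, which answers mitochondrial stress, 1.22-fold, hif-1 1.32-fold and hlh-30, the TFEB factor of autophagy genes, 1.43-fold. egl-9, the oxygen sensor that marks HIF-1 for decay, rose 1.34-fold, the kinase pdk-1 1.3-fold and the Mediator subunit mdt-15 1.25-fold. Mutant replicate 1 was the lowest mutant library for daf-16, mdt-15 and pdk-1, still above every wild-type library.

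Among the 5 that fell, pqm-1 and sgk-1 changed most. pqm-1, a zinc-finger factor that works opposite DAF-16, had 751, 716, 714, 681 and 651 in the wild type and 378, 379, 310.0, 420.4 and 429.8 in the mutant. It was 1.84-fold lower without overlap (-0.88 ± 0.076, limma adjusted p = 4.4e-08), but higher in the mutant at 20 °C (0.32 ± 0.052, difference -1.2 ± 0.092, limma adjusted p = 4.82e-08). The difference of pqm-1 from 25 °C was -0.78 (limma adjusted p = 3.39e-07). sgk-1, a kinase of the insulin and TOR pathways, fell from 282 ± 22.4 to 155 ± 19 (1.82-fold), and nhr-80, a nuclear receptor that controls fatty acid desaturation, 1.56-fold.

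The list for the p38 MAP kinase pathway, which drives the intestinal response to pathogens, had 7 of 8 members higher and none lower, or 6 after length centring. Besides the kinases, their adaptor and atf-7, the list counts the phosphatase vhp-1 and the bZIP factors zip-2 and cebp-1. From the top, the adaptor tir-1 was 1.1-fold higher with overlap, a change that vanished after length centring (-0.0017, adjusted p = 0.977). nsy-1, the first kinase, had 2217, 2308, 2298, 2403 and 2374 in the wild type and 3229, 3291, 3115, 3198 and 3172 in the mutant, without overlap (1.38-fold, limma adjusted p = 6.2e-09). sek-1, the middle kinase, rose 1.21-fold, while pmk-1, the p38 kinase itself, did not pass (0.16 ± 0.072, limma adjusted p = 0.0733), nor with DESeq2 or with edgeR and RLE scaling, though it did with edgeR and TMM (adjusted p = 0.0461) and without wild-type replicate 2 (limma adjusted p = 0.0108). vhp-1, the phosphatase that switches p38 off, rose most: 9267, 10770.4, 9588, 10296 and 10418 in the wild type against 13969.6, 15612, 15423, 14199 and 15354 in the mutant (1.48-fold). The transcription factor atf-7 rose 1.16-fold, and the bZIP factors zip-2 1.19-fold with overlap and cebp-1 1.23-fold. The difference from the effect at 20 °C passed for 6 of 8 members and from that at 25 °C for 6, all positive. These shares compare with 8.92% and 29.3% positive among all genes.

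The pathogen-response genes known to depend on this pathway did not move with it, at 5 higher and 8 lower of 25, near the background, and 3 were higher without mutant replicate 2, 3, 4 or 5. With the stricter filter (a value of at least 50), 2 of 14 were higher. dod-24 was at 65.3, 68, 43, 39.1 and 66.7 in the wild type and 97.9, 159.7, 75, 89.9 and 108 in the mutant (1.86-fold, limma adjusted p = 0.00203). Mutant replicate 2 was the highest, and no mutant library fell within the wild-type range. At 20 and 25 °C dod-24 was lower in the mutant (-0.43 ± 0.07 and -3.07 ± 0.10). dod-22 (2.21-fold) and C32H11.1 (1.6-fold) also rose at 15 °C from low values (6.14 to 9.9976 to 14.7 to 20.2 and 16.5 to 25.4 to 26.1 to 51.5), while C17H12.8 fell 1.65-fold, F35E12.9 1.6-fold and F35E12.10 1.52-fold. All wild-type values of dod-22 were under 10, so it entered the test only through the mutant libraries, and its rise is given as a description.

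Genes of the intestine were lower. Of 19 tested markers, 15 were lower and 1 higher, with a median of -0.52, and 15 were lower with any 1 library left out. elt-2, the GATA factor that governs intestinal genes, had 136, 135, 136, 141 and 140.3 in the wild type and 45.9, 63.7, 59, 66.9 and 67.8 in the mutant. The wild-type libraries lay close together and far above the mutant, a 2.27-fold fall (-1.18 ± 0.11, limma adjusted p = 9.66e-08). Its partner elt-7 fell 1.43-fold with overlap, whereas the epidermal GATA factor elt-1 rose 1.3102-fold and egl-27 and egl-18 1.17-fold and 1.14-fold, and elt-3 did not pass (0.082 ± 0.07). pgp-1, a P-glycoprotein pump of the gut, had 590.0, 555, 619, 618 and 579.8 and 301, 373, 276, 371 and 287. It was 1.85-fold lower without overlap, but higher in the mutant at 20 °C (0.42 ± 0.065, difference -1.31 ± 0.10, limma adjusted p = 6.95e-08). The difference of pgp-1 from 25 °C was -0.36 (limma adjusted p = 0.00494), less than its fall at 15 °C, so that the effect at 25 °C lay below 0 too. eps-8, a protein of the microvilli, was the member that rose (1.26-fold), and erm-1, which links microvilli to the cytoskeleton, did not pass (-0.003 ± 0.03, 8891 to 9381 against 9007 to 9318). The summed value of the list was 23264 to 25809 in the wild type and 19694 to 23336 in the mutant, which overlap slightly. At 20 °C 7 members were higher and 8 lower (22.8% and 24.7% of all genes there). The difference of the effects passed below 0 for 12 of 19 and above 0 for none (11.3% and 8.92% of all genes). At 25 °C the list was lower as well, with 2 higher and 16 lower (36.8% and 39.7% of all genes there) and a median of -0.48, and the difference from 25 °C passed above 0 for 6 and below 0 for 9 (29.3% and 30.4% of all genes).

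Digestive and antimicrobial enzymes of the gut followed. Lysozymes gave 10 lower and none higher of 13, and saposin-like pore-forming proteins 15 lower and 1 higher of 19. ilys-2, an invertebrate-type lysozyme, had 109, 71, 91.1, 108 and 105 in the wild type and 40.7, 27.3, 18, 26.1 and 27.1 in the mutant, a 3.46-fold fall without overlap (limma adjusted p = 2.44e-07). lys-1 fell 1.58-fold. spp-21 was at 43.9, 71, 64.5, 94.7 and 58.8 and 11.3, 15.2, 12, 16.7 and 20.9, 4.14-fold lower, yet it was higher in the mutant at 20 °C (1.07 ± 0.17, difference -3.12 ± 0.27, limma adjusted p = 1.59e-07). Its difference from 25 °C was -0.69 (limma adjusted p = 0.0238), less than its fall at 15 °C, so that the effect at 25 °C lay below 0 too. spp-15 fell from 994 ± 42.7 to 547 ± 48.8, and spp-4 was the member that rose (1.41-fold, with overlap). Cysteine cathepsins, proteases of the gut lumen and lysosome, gave 7 lower of 9, with 4 without wild-type replicate 1, 3 or 4 or mutant replicate 1, without the filter and after length centring. cpr-3 had 519, 444, 529, 502 and 491 in the wild type and 258, 222, 204, 284 and 285 in the mutant, and cpz-2 588, 577, 604, 669.9 and 583 and 312, 307, 287, 374 and 313. Both were lower without overlap (1.99-fold and 1.9-fold). cpr-6 was 1.61-fold lower, and its mutant replicates 1 and 3 were lowest, as in lys-1 and lipl-5. Of the aspartyl proteases 5 of 12 were lower, among them asp-4 (5205 ± 79 to 3392 ± 173, 1.54-fold), a necrosis protease, and asp-12 (2.04-fold).

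Fat handling changed in parts. All 9 fatty acid binding proteins were tested, 7 were lower and 1 higher, and 4 were lower after length centring. lbp-2 had 4670.1, 4041, 4435, 4700.3 and 4131 in the wild type and 2896, 2313, 1884, 2536 and 2123 in the mutant, 1.89-fold lower without overlap (limma adjusted p = 6.08e-05). The lysosomal lipases lipl-5 (1.97-fold) and lipl-1 (1.65-fold), which free fatty acids from stores, fell together with 4 of 6 members and none rose, or with 2 without wild-type replicate 4 or mutant replicate 2. fasn-1, fatty acid synthase, was higher, at 13058, 12861, 14310.3, 14215 and 13741 against 18833, 20765, 19402, 20799.7 and 18919.9, a 1.45-fold rise without overlap (limma adjusted p = 6.2e-09). The desaturases fat-2 (1.47-fold) and fat-5 (1.62-fold) and dgat-2 (1.78-fold), which makes triglyceride, were lower, and the elongase elo-1 1.15-fold higher, so that the synthesis list held 6 higher and 10 lower of 21. In beta-oxidation, 11 were higher and 25 lower of 55. acdh-8, an acyl-CoA dehydrogenase, rose from 16.12 ± 3.59 to 55.8 ± 11.7 (3.33-fold) and the acyl-CoA synthetase acs-10 2.57-fold, while acs-14 fell 1.79-fold and dhs-28, a peroxisomal enzyme of ascaroside synthesis, 1.4-fold. Of 6 vitellogenins, the yolk proteins made by the intestine, only vit-2 passed, with 53444, 51660.5, 58120.1, 60025 and 53266 in the wild type and 32483, 49774, 32606, 49743 and 47322 in the mutant (1.33-fold, limma adjusted p = 0.0448). Mutant replicates 1 and 3 were far below the other 3. The call was lost without any 1 of the wild-type replicates or mutant replicate 1 or 3 (adjusted p = 0.0626 to 0.0894) and without the filter on low values (0.0791).

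Iron and metal genes gave 8 lower and 1 higher of 12. Metallothioneins and ferritins are counted among the intestine markers as well, so these lists share members. mtl-2, a metallothionein, was 2.0-fold lower (874 ± 130.2 to 438 ± 73.3), the haem transporter hrg-4 1.55-fold, the metal transporter smf-3 1.68-fold and cdr-1, which answers cadmium, 1.99-fold. All 4 were without overlap. The difference from 20 °C passed below 0 for 8 of 12 members, and that from 25 °C for 9, with none above 0 in either, against 11.3% and 30.4% negative among all genes.

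**Figure D3:**
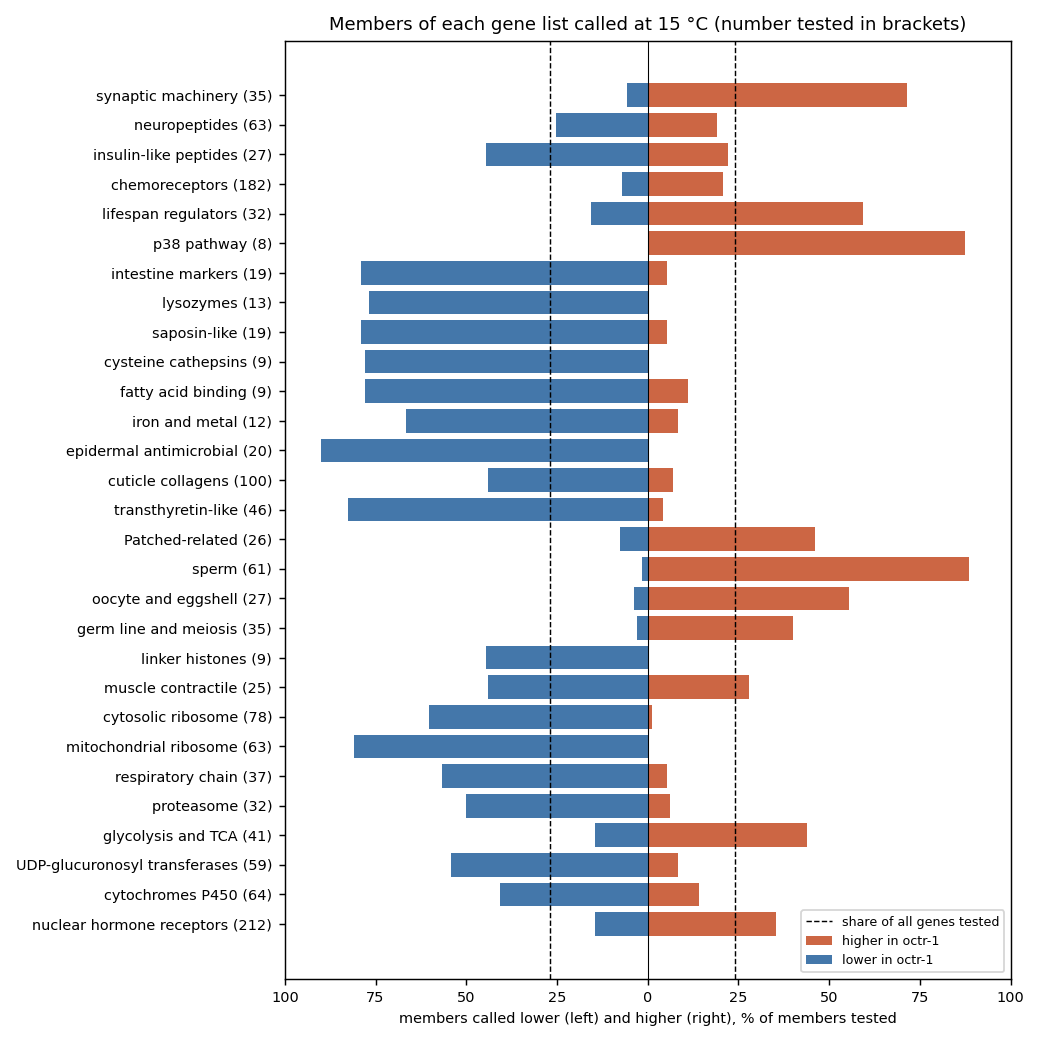
Share of the tested members of 29 gene lists called lower (left) or higher (right) in octr-1 mutants at 15 °C. Dashed lines mark the shares among all tested genes, 27% lower and 24.1% higher. Epidermal antimicrobial, transthyretin-like, mitochondrial ribosome, intestinal and saposin-like genes extend farthest to the left and sperm, p38 pathway and synaptic genes farthest to the right.

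Antimicrobial peptides of the epidermis were the list with the largest share of falls among those shown, 18 of 20 (90%) with none higher and a median of -0.78. cnc-4, a caenacin, had 434, 469.9, 620.1, 509 and 429.8 in the wild type and 275, 243, 229, 264 and 248 in the mutant, 1.94-fold lower (limma adjusted p = 1.1e-07). No library overlapped, although wild-type replicate 3 was well above its group. nlp-31 fell 1.51-fold and nlp-27 1.52-fold, and after length centring nlp-27 was no longer called (-0.36, adjusted p = 0.0696). All 20 have short transcripts, and 16 were lower and 1 higher after centring (median -0.63). At 20 °C 6 members were higher and 7 lower (22.8% and 24.7% of all genes there). The difference from 20 °C passed below 0 for 12 and above 0 for none (11.3% and 8.92% of all genes). At 25 °C 9 were higher and 10 lower (36.8% and 39.7% of all genes there). The difference from 25 °C passed below 0 for 12 and above 0 for 3 (30.4% and 29.3% of all genes). In the fungus-induced fip and fipr genes, 9 of 14 tested were lower and none higher, and only 14 of 36 passed the filter. fip-2 had 201, 179, 181, 202 and 179.8 in the wild type and 39, 33.3, 29, 53.3 and 40.7 in the mutant, a 4.82-fold fall with a wide gap between the groups (limma adjusted p = 3.17e-10).

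Cuticle collagens gave 7 higher and 44 lower of 100. col-119 was at 1114, 1057, 1282, 1202 and 1100.0 in the wild type and 250.3, 371, 286, 401 and 473 in the mutant (3.3-fold, limma adjusted p = 1.27e-05), far apart. col-179 fell 2.36-fold, and col-89 was among those that rose (1.8-fold, 78.3 ± 14.4 to 140.5 ± 11.8). Of the 19 collagens and cuticle genes named for body shape, 13 were lower and none higher, among them dpy-10 (1.32-fold) and dpy-7 (1.82-fold). rol-6 had 27.8, 24, 101.3, 52.5 and 28.1 and 18.2, 5.05, 8.0, 11.5 and 9.39, with wild-type replicate 3 far above the others of its group and no overlap (3.85-fold lower). Most mutant values of rol-6 were under 10, so it entered the test only through the wild-type libraries, and its fall is given as a description. The 8 epidermal markers did not share a direction, with 2 higher and 4 lower and a sum of 5043 to 5291 in the wild type and 5428 to 5631 in the mutant.

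Transthyretin-like genes, a nematode family of small secreted proteins, were lower in 38 of 46 and higher in 2. ttr-2 had 30668, 28703, 29492, 28541 and 27744 in the wild type and 17591, 15022, 14332, 18147 and 16516 in the mutant, 1.78-fold lower without overlap (limma adjusted p = 1.93e-08). ttr-34 fell 1.91-fold, ttr-17 2.0-fold and ttr-51 1.5-fold, while ttr-43 rose 1.82-fold (317 ± 16.09 to 578 ± 52.1). 42 of the 46 lie in the shortest class, and 33 were lower and 5 higher after centring (median -0.35). The difference from 20 °C passed below 0 for 20 and above 0 for 4 of 46 (11.3% and 8.92% of all genes). That from 25 °C passed below 0 for 25 and above 0 for 10 (30.4% and 29.3% of all genes). ttr-2 did not pass at 20 °C (0.015 ± 0.051), and ttr-51 was higher in the mutant there (0.31 ± 0.047).

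Patched-related receptors, which in nematodes serve moulting and the cuticle, gave 12 higher and 2 lower of 26, and 5 and 3 of 25 after length centring, as all 25 with a length are in the longest class. ptc-1 rose 1.32-fold (20137 ± 495 to 26561 ± 975) and ptr-8 1.52-fold, and ptr-13 fell 1.6-fold. In the hedgehog-related family 13 were higher and 5 lower of 42, and 8 and 5 after centring. wrt-9 (1.68-fold) and grl-13 (1.82-fold) rose and grd-5 (1.86-fold) and wrt-2 (2.24-fold) fell. C-type lectins gave 12 higher and 42 lower of 111, with 7 higher without mutant replicate 2 and 6 of 53 with the stricter filter. clec-73 rose 3.61-fold (29.3 ± 10.9 to 105 ± 16.5) and clec-123 2.76-fold, whereas clec-150 fell 2.09-fold and clec-169 3.36-fold (278 ± 31.9 to 84.6 ± 23.5).

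Sperm genes and, less widely, oocyte genes were higher. Of the sperm genes, 54 were higher and 1 lower of 61, with a median of 1.5. They were higher in the mutant at the other temperatures too, in 55 of 61 at 20 °C (median 1.95) and 55 of 61 at 25 °C (median 1.32). Among all genes 22.8% were higher at 20 °C and 36.8% at 25 °C. Summed over all 84 sperm genes, values at 15 °C were 5663 to 6648 in the wild type and 8256 to 9856 in the mutant. The filter left out 23 of the 84, and with the stricter filter 27 of 33 were higher, with a median of 1.53. alg-3, the Argonaute of small RNAs in spermatogenesis, had 57.8, 47, 72.7, 82.3 and 55.3 in the wild type and 219, 212, 267, 205 and 212 in the mutant (3.55-fold, limma adjusted p = 4.28e-09). The gap between the groups was wide, with mutant replicate 3 highest. spe-15, a sperm myosin, rose 1.34-fold, and the sperm channel spe-41 1.57-fold. Of 27 oocyte and eggshell genes 15 were higher and 1 lower. cbd-1, a chitin-binding protein of the eggshell, had 34558, 32624, 36602, 33463 and 33378 in the wild type and 45226, 56974, 48495, 53617 and 49445 in the mutant, 1.48-fold higher without overlap (limma adjusted p = 2.17e-07). The oocyte regulator lin-41 rose 1.42-fold, the eggshell proteoglycan cpg-1 1.37-fold and the chitin synthase chs-1 1.21-fold, while perm-4 fell 1.29-fold with overlap, a call lost without mutant replicate 1 (adjusted p = 0.05001). At 20 °C 2 of these 27 were higher and 13 lower (22.8% and 24.7% of all genes there). At 25 °C none was higher and all 27 were lower (36.8% and 39.7% of all genes there). The difference passed above 0 for 17 against 20 °C and for 24 against 25 °C (8.92% and 29.3% of all genes). Genes of the mitotic germ line and meiosis gave 14 higher and 1 lower of 35, 9 and 2 after length centring, with a median of 0.048: the cohesin rec-8 (1.19-fold), the Piwi protein prg-1 (1.19-fold) and the poly(A) polymerase gld-2 (1.2-fold) were higher and the synaptonemal protein syp-3 1.18-fold lower, the last 2 not called after centring (0.08 and -0.11).

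Genes first transcribed in the embryo did not follow, at 4 lower and none higher of 11 tested, with vet-2 1.35-fold and pes-10 1.46-fold lower. Linker histones, which compact chromatin, were lower in 4 of 9. hil-7 had 935, 1098, 1070.3, 940.5 and 1075 in the wild type and 549.9, 528, 542, 477 and 502 in the mutant, 1.97-fold lower without overlap (limma adjusted p = 5.48e-10). hil-1 fell 1.41-fold and hil-3 1.23-fold, and both hil-7 and hil-1 were higher in the mutant at 20 °C (0.27 ± 0.065 and 0.23 ± 0.057). Core histones were 5 higher and 5 lower of 30, and 9 and 2 after centring (3 higher without mutant replicate 2 or 4), and their transcripts mostly lack poly(A) tails, which limits what this library type measures. his-41 was among those lower (1.3-fold).

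In muscle, the 3 giant proteins were higher and several small regulatory proteins lower. unc-22, twitchin, had 1325, 1303, 1551, 1464 and 1429 in the wild type and 2365, 2515, 2333, 2463 and 2332 in the mutant (1.7-fold, limma adjusted p = 6.42e-10). unc-89, obscurin, rose 1.82-fold and ttn-1, titin, 1.53-fold, with transcripts of 21601, 24703 and 45903 bases. tni-4, a pharyngeal troponin I with a transcript of 821 bases, was at 392, 354, 360.2, 364 and 357 and 196, 167, 156, 213 and 195, and thus 1.98-fold lower without overlap. tnc-2, troponin C, fell 2.17-fold, mlc-2, a myosin light chain, 1.78-fold, unc-27, troponin I, 1.49-fold and lev-11, tropomyosin, 1.49-fold, whereas act-2, an actin, rose 1.25-fold. Over all 25 contractile genes 7 were higher and 11 lower, and 8 and 13 after length centring. Of 6 markers of body muscle 3 were higher and 1 lower (median 0.19), and of 7 pharynx markers 1 and 3. Sums over the markers of body muscle overlapped (6383 to 8586 in the wild type, 5941 to 7370.4 in the mutant), and those over the pharynx markers did not (1212 to 1330.2 and 892 to 1056). Of 3 markers of scavenger coelomocytes, lgc-26 (1.93-fold) and cup-4 (1.37-fold) were lower and unc-122 did not pass.

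Most cytosolic ribosomal proteins (65 of 77) and 33 of 62 mitochondrial ones have transcripts in the shortest class, as do 13 of 35 respiratory chain genes, 2 of 28 translation factors and 0 of 32 proteasome subunits. Length centring lowered the count of falls in each of these lists. Mitochondrial ribosomal proteins were lower in 51 of 63 with a median of -0.21, and 25 were lower and 6 higher of 62 after centring. mrpl-9 had 3267, 3437, 3043, 3158 and 3292 in the wild type and 2711, 2489.8, 2608, 2546 and 2419 in the mutant (1.27-fold), and mrps-14 fell 1.25-fold, both without overlap. Cytosolic ribosomal proteins were lower in 47 of 78, but after centring 6 were lower and 11 higher of 77. rps-15, for example, went from -0.27 to -0.05 (adjusted p = 0.266). Respiratory chain genes were 21 lower and 2 higher of 37, and 7 and 7 of 35 after centring; lpd-5 (1.27-fold), nuo-1 of complex I (1.22-fold) and cco-1 of complex IV (1.27-fold) were lower. Proteasome subunits were 16 lower and 2 higher of 32, and 9 and 3 after centring, with pas-4 (1.24-fold) and rpn-12 (1.21-fold) lower and the long rpn-1 1.15-fold higher. Translation factors were 14 lower and 1 higher of 28, and 10 and 5 after centring; 2 or 3 were higher with edgeR, DESeq2 or scaling by library size, 5 without wild-type replicate 3 and 2 without wild-type replicate 1 or mutant replicate 1. eif-3.H was 1.18-fold lower and ifg-1, the eIF4G scaffold, 1.16-fold higher, not called after centring (0.02). The elongation factor eef-2 (0.06 ± 0.049) did not pass. eef-1A.1 did not pass either (0.14 ± 0.058, limma adjusted p = 0.0536), but it was called higher with edgeR (TMM 0.0426, RLE 0.0487), DESeq2 (0.0274), scaling by library size (0.0158), length centring (0.0179) and without wild-type replicate 3 or mutant replicate 1 (0.00965 and 0.00478).

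Central carbon metabolism was higher in part, with 18 higher and 6 lower of 41 genes of glycolysis and the citric acid cycle. aldo-1, an aldolase, had 3393, 3031, 3813, 3118 and 3325 in the wild type and 4931, 5155, 5609.6, 5598 and 5709.6 in the mutant, 1.62-fold higher without overlap (limma adjusted p = 1.37e-07). ldh-1, lactate dehydrogenase, rose 1.39-fold, pyc-1, pyruvate carboxylase, 1.2-fold and pfk-1.2, a phosphofructokinase, 1.97-fold. At 20 °C 6 of the 41 were higher and 18 lower (22.8% and 24.7% of all genes there). At 25 °C 3 were higher and 37 lower (36.8% and 39.7% of all genes there). The difference passed above 0 for 15 members against 20 °C and for 36 against 25 °C. Among all genes these shares were 8.92% and 29.3%. tre-5, a trehalase, had 364, 388, 414, 382 and 411 in the wild type and 251, 245, 224, 296 and 270.2 in the mutant (1.53-fold lower). It did not overlap between the groups, and at 20 and 25 °C it was higher in the mutant (1.32 ± 0.068 and 1.59 ± 0.085).

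Detoxifying enzymes were lower more often than higher. Cytochromes P450 gave 9 higher and 26 lower of 64, UDP-glucuronosyl transferases 5 and 32 of 59, and glutathione S-transferases 9 and 17 of 46, but 11 and 14 after length centring (median -0.0061). cyp-13A5 had 1101, 1201, 1196, 1275 and 1337 in the wild type and 572, 516, 441, 617 and 622 in the mutant, 2.22-fold lower without overlap (limma adjusted p = 5.27e-08), against 0.53 ± 0.049 at 20 °C. cyp-34A9 fell 1.88-fold, ugt-25 1.53-fold and gst-22 1.99-fold, while cyp-33C8 (1.35-fold), cyp-36A1 (1.4-fold), ugt-13 (1.47-fold) and gst-31 (2.11-fold) rose. Nuclear hormone receptors, many of which regulate such enzymes, went the other way, 75 higher and 31 lower of 212. nhr-34 was at 812, 822, 789, 799.5 and 819 in the wild type and 1297, 1314, 1264, 1253 and 1278 in the mutant (1.58-fold, limma adjusted p = 6.07e-10), a narrow spread in both groups. nhr-85 rose 1.73-fold, nhr-57, a target of HIF-1, 1.63-fold and nhr-3 1.35-fold, and nhr-109 (1.83-fold) and nhr-8 (1.72-fold), a receptor of xenobiotic resistance, fell.

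Stress and repair genes were mixed. trx-3, an intestinal thioredoxin, had 483, 489.9, 582, 562 and 511 in the wild type and 281, 225, 229, 268 and 229.5 in the mutant, 2.13-fold lower (limma adjusted p = 2.95e-09). The groups lay far apart, and at 20 and 25 °C the gene was higher in the mutant (0.57 ± 0.055 and 0.78 ± 0.048). The antioxidant list held 9 lower and 2 higher of 18, and 6 and 4 after length centring, with the mitochondrial sod-2 (1.26-fold) and prdx-3 (1.23-fold) lower. Small heat shock proteins were 5 lower and 1 higher of 9: hsp-12.6 fell from 438 ± 29.1 to 232 ± 49.4 (1.91-fold), against a rise at 20 °C (0.22 ± 0.087), and hsp-12.2 fell 1.54-fold. Of the large chaperones, hsp-70 fell 1.52-fold and hsp-1 rose 1.23-fold with overlap. Genes of the unfolded protein response of the endoplasmic reticulum, a response that OCTR-1 is known to restrain, gave 4 higher and 2 lower of 17, with effects from -0.18 to 0.15. The share of rises was near the background and that of falls below it, and after length centring 2 were higher and 5 lower. In the abu and pqn family, 17 were higher and 10 lower of 53, and 11 higher after length centring. In autophagy 8 were higher and 7 lower of 27. Only 3 were lower with edgeR or DESeq2, 4 without the filter, 3 without wild-type replicate 2 or 4 or mutant replicate 3 or 5, and 4 without wild-type replicate 1 or mutant replicate 2. Those higher included the receptor sqst-1 (1.26-fold) and the kinase unc-51 (1.28-fold). Targets of DAF-16 gave 4 higher and 8 lower of 19, near the background for rises: lea-1, a desiccation protein, rose 1.44-fold and dod-3 fell 2.29-fold.

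The 12 largest rises and the 12 deepest falls, taken among genes whose groups did not overlap and whose mean reached 2 log2 CPM, held genes outside these lists. ZC247.1 had 2094, 2134, 2287, 2385 and 2136 in the wild type and 4625, 5056, 5204, 4995 and 5654 in the mutant, 2.31-fold higher (limma adjusted p = 3.51e-12), with a wide gap. W03F11.4 rose 2.96-fold and catp-4, a P-type ATPase, 2.27-fold. K11C4.8 rose 2.22-fold with a wide spread in the wild type (118.87 to 347). Among the 12 deepest falls, T05E12.3 was at 1737, 1858, 1721, 1856 and 1727 and 609, 573, 386, 601 and 478 (3.4-fold, limma adjusted p = 1.84e-07). dct-7 had 177, 234.94, 228, 243 and 211 and 72.7, 56.6, 53, 66.9 and 70.9, 3.38-fold lower, and F23F12.12 fell 3.13-fold. dct-7 and F23F12.12 were higher in the mutant at 20 °C (0.26 ± 0.088 and 0.60 ± 0.11). The table of the authors' own comparison called 7876 genes, and 7561 of the 8102 called here were among them, each with the same sign in the authors' deposited table.

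The genotype effect at 15 °C differed from that at 20 °C in 3104 of 15370 genes (20.2%; 8.92% with a more positive and 11.3% with a more negative effect at 15 °C) and from that at 25 °C in 9134 of 15292 (59.7%; 29.3% and 30.4%). With scaling by library size alone the second count was 10129, of which 27.1% rather than 49% were positive, and the median difference over all genes was -0.25 rather than -0.04, so that directions against 25 °C hold relative to the normalization. The smallest p-values in the difference from 20 °C included faah-2, a fatty acid amide hydrolase that degrades endocannabinoids, with 1420.0, 1674, 1522, 1636 and 1648 in the wild type and 953, 941, 972, 1106 and 983 in the mutant at 15 °C. It was 1.59-fold lower without overlap there and higher in the mutant at 20 °C (0.65 ± 0.048) and 25 °C (0.68 ± 0.043). Y41C4A.11 rose at all 3 temperatures but least at 15 °C (0.83 ± 0.057 against 2.12 ± 0.052 and 2.45 ± 0.044), and Y54G2A.57 did not pass at 15 °C (-0.011 ± 0.11) and was higher in the mutant at 20 °C (2.35 ± 0.09). Against 25 °C, C15H9.11 (-0.96 ± 0.12 at 15 °C, 3.57 ± 0.046 at 25 °C) and C27H5.6 (-1.24 ± 0.086 and 2.38 ± 0.071) changed in opposite directions. folt-2, a folate transporter, did not pass at 15 °C (0.04 ± 0.11) and was lower in the mutant at 25 °C (-4.9 ± 0.11), and F37H8.5 fell less at 15 °C (-0.33 ± 0.062) than at 25 °C (-2.89 ± 0.055). clec-266 did not pass at 15 °C (0.047 ± 0.04) and was lower at 25 °C (-1.83 ± 0.048). All of these differences passed the test, and the comparisons at the 3 temperatures share no samples.

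**Figure D4:**
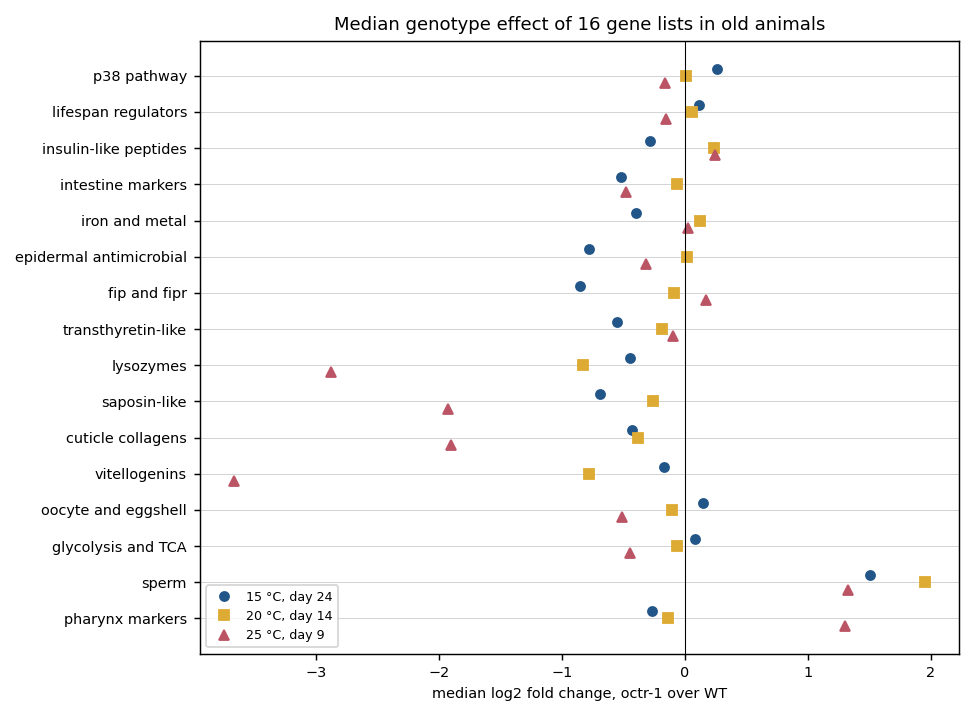
Median log2 fold change of octr-1 over wild type for 16 gene lists in old animals at 15 °C (day 24), 20 °C (day 14) and 25 °C (day 9), over the members tested at each. Epidermal antimicrobial, transthyretin-like and iron genes lie lowest at 15 °C, whereas lysozymes, collagens and vitellogenins lie lowest at 25 °C.

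Seen by gene, several of the falls described above had the opposite direction at the other temperatures. ins-22, hil-7, hil-1, trx-3, tre-5, cyp-13A5, faah-2, dct-7 and hsp-12.6 were lower at 15 °C and higher in the mutant at both other temperatures, and for each the differences from 20 and 25 °C passed. ins-11 had the same directions, given as a description because it passed the filter at 15 °C only through the wild-type libraries. Rises were reversed likewise against 25 °C: nsy-1 (-0.43 ± 0.041), fasn-1 (-1.07 ± 0.036), egl-3 (-0.53 ± 0.051), cbd-1 (-1.05 ± 0.035), lin-41 (-0.51 ± 0.034), cpg-1 (-0.73 ± 0.034) and chs-1 (-0.80 ± 0.038) were lower in the mutant at 25 °C. Where the fall at 25 °C was deeper, as in lys-7 (-1.03 at 15 °C, -1.8 ± 0.047 at 20 °C and -3.57 ± 0.037 at 25 °C) and asp-4 (-0.62 and -1.94 ± 0.031 at 15 and 25 °C), the gene was lower in every old group. lys-3 fell at 15 °C (-1.0 ± 0.069) and rose at 20 °C (0.50 ± 0.066).

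**Figure D5:**
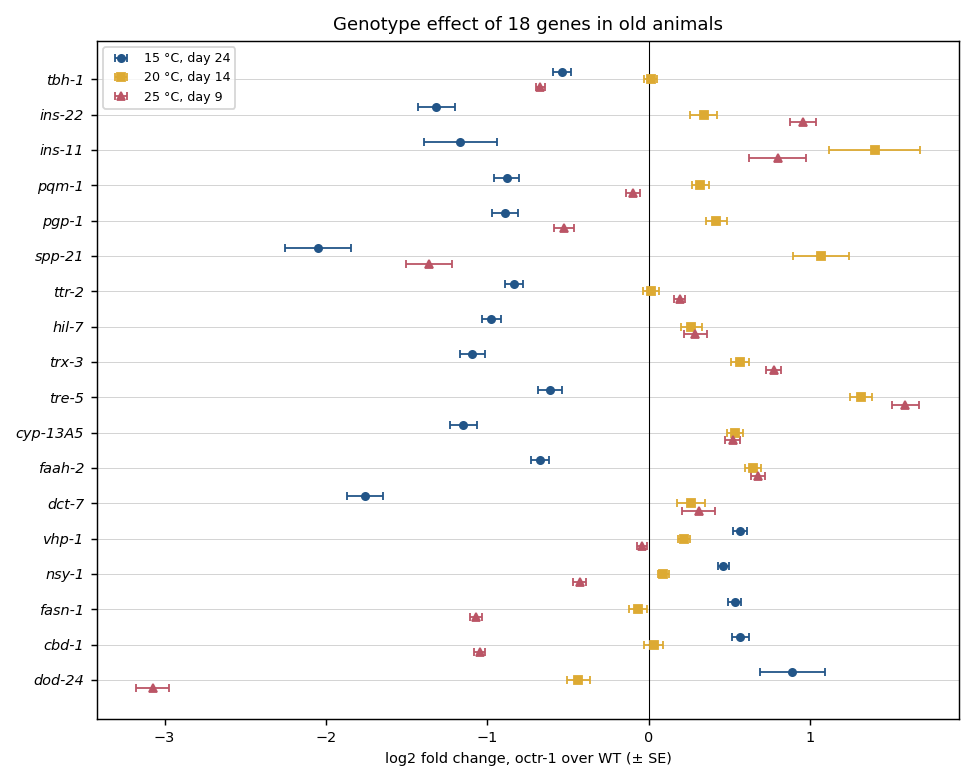
Log2 fold change of octr-1 over wild type (± SE, 5 libraries per genotype) of 18 genes in old animals at 15, 20 and 25 °C. From tbh-1 to dct-7 the effect at 15 °C lies below 0, and that at 20 °C above it, for tbh-1 and ttr-2 by less than its SE. From vhp-1 to dod-24 the effect at 15 °C lies above 0 and that at 25 °C below it, for vhp-1 close to 0.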

How the data were processed

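Members of the gene lists, and the lists themselves, were chosen with earlier results of these data known. Lists share some genes, such as mtl-2 and elt-2, and are not independent of each other. The submitters' processing notes name bcl2fastq, HISAT2 2.2.1, featureCounts, DESeq2 1.31.16 and the build ce10. Values deposited and used here were a signal per gene and library, which the authors made by dividing read counts by a size factor. The authors' deposited table also holds their log2 fold changes and p-values, used only for the count of shared calls. Whole reads were recovered from the deposited values (100.0% of 3784320 within 0.001 reads), which gave the depth of each library. The 10 mutant libraries of 20 and 25 °C have these 2 temperatures exchanged in the table that compares them with each other. The names in the tables against the wild type and against 15 °C were followed, and effects at 20 and 25 °C depend on that.

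A gene entered the test when 5 or more libraries had a value of 10 or more. The test was limma 3.58.1 (R 4.3.3; trend, robust) on log2(value + 1), so that fold changes of low genes are understated, with Benjamini-Hochberg adjustment over all tested genes. Differences of genotype effects were tested for features tested in both tables, each table with its own limma fit. The difference of the log2 fold changes was divided by the root of the summed squared standard errors. A t distribution with the smaller degrees of freedom gave the p-value. A limma adjusted p given with a difference is that p-value after Benjamini-Hochberg adjustment. edgeR 4.0.16 on the recovered reads called 8091 genes, of which 7776 were calls of the main test with the same sign. The fits were also run on simulated counts in which only 200 genes were changed. That is a far smaller share than was called here, so the run does not check the normalization of these data. Annotated lengths are those of the longest transcript of each gene in WBcel235, used for length only. Genes named are octr-1 and its neighbours, the 12 largest rises and 12 deepest falls, every member of lists with at most 12 tested members and of 4 regulator lists, otherwise up to 4 called members of smallest p in each direction and 2 of highest mean, and the 6 of smallest p in each difference. Genes given as examples were taken from those. Alternatives were other scalings, filters, pseudocounts and tools, a replicate block, leaving out each library and, chosen after seeing the data, length centring.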

Additional observations from a re-analysis of the deposited data

Results flagged for a closer look

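In 27 of 454 sets of 5 normalized values (each gene named here in each genotype at 15 °C), 1 library lay far from the other 4 by Dixon's gap criterion, which chance meets in about 1 in 20 groups. Mutant replicate 1 held 8 of these values, more than any other library, and no explanation of this was tested. Wild-type replicate 1 was above its group in tni-4 (392 against 354 to 364). Values above the others of the group were found in wild-type replicate 2 for grl-13 (47 against 28.8 to 32.5) and ser-6 (32 against 21.5 to 22.8). For clec-73 (48.1 against 21 to 27.8) and spe-41 (174 against 139 to 142), wild-type replicate 3 lay above the rest of its group. Wild-type replicate 4 was above its group in cat-1 (56.6 against 45 to 48.2), cpr-6 (4995 against 4446 to 4588), cpz-2 (669.9 against 577 to 604) and smf-3 (48.4 against 28.9 to 34.3). Values above the others of the group were found in wild-type replicate 5 for lgc-26 (142 against 111 to 119.36). For cyp-33C8 (2131 against 2012 to 2045), nhr-8 (92.7 against 68.9 to 73.8), syp-3 (1398 against 1148 to 1214) and ttr-43 (669 against 536 to 571), mutant replicate 1 lay above the rest of its group. Mutant replicate 1 was below its group in daf-16 (5523 against 6087 to 6216), dod-22 (14.7 against 18.8 to 20.2), mdt-15 (5316 against 5915 to 6037) and pdk-1 (1144 against 1309.9 to 1341). Values above the others of the group were found in mutant replicate 2 for C32H11.1 (51.5 against 26.1 to 32). For alg-3 (267 against 205 to 219), mutant replicate 3 lay above the rest of its group. Mutant replicate 3 was below its group in F35E12.9 (180.0 against 200.05 to 207) and osm-9 (176 against 206 to 216). Values above the others of the group were found in mutant replicate 4 for faah-2 (1106 against 941 to 983), flp-1 (151 against 104 to 114) and pas-4 (5099 against 4679 to 4787). For clec-266 (14935 against 13124 to 13595) and wrt-9 (116 against 97 to 102), mutant replicate 5 lay above the rest of its group.

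The genotype effect differed between 15 and 20 °C in 3104 genes and between 15 and 25 °C in 9134 (t test of the difference between limma effects, adjusted p under 0.05). Temperature and day of collection changed together. Differences are given as the log2 effect at 15 °C minus that at the other temperature. Those of ins-11 are a description, as it passed the filter at 15 °C only through the wild-type libraries. Against 20 °C the difference was negative for C15H9.11 (-0.78), C27H5.6 (-0.50), F23F12.12 (-2.24), T22B7.3 (-0.68), Y41C4A.11 (-1.29), Y54G2A.57 (-2.36), cyp-13A5 (-1.68), dct-7 (-2.02), faah-2 (-1.32), hil-1 (-0.73), hil-7 (-1.24), hsp-12.6 (-1.15), ins-11 (-2.57), ins-22 (-1.66), lys-3 (-1.5), pgp-1 (-1.31), pqm-1 (-1.2), spp-21 (-3.12), tbh-1 (-0.55), tre-5 (-1.93), trx-3 (-1.66), ttr-2 (-0.85) and ttr-51 (-0.89). It was positive against 20 °C for F37H8.5 (0.40), cbd-1 (0.54), chs-1 (0.40), clec-266 (0.38), cpg-1 (0.50), dod-24 (1.33), fasn-1 (0.60), folt-2 (0.94), lin-41 (0.39), lys-7 (0.77), nsy-1 (0.37) and octr-1 (0.64). Against 25 °C it was negative for C15H9.11 (-4.53), C27H5.6 (-3.62), F23F12.12 (-2.88), T22B7.3 (-1.24), Y41C4A.11 (-1.62), Y54G2A.57 (-1.2), cyp-13A5 (-1.67), dct-7 (-2.07), faah-2 (-1.35), hil-1 (-0.93), hil-7 (-1.26), hsp-12.6 (-1.42), ins-11 (-1.97), ins-22 (-2.27), lys-3 (-1.15), pgp-1 (-0.36), pqm-1 (-0.78), spp-21 (-0.69), tre-5 (-2.2), trx-3 (-1.87), ttr-2 (-1.03) and ttr-51 (-1.29). It was positive against 25 °C for F37H8.5 (2.56), asp-4 (1.32), cbd-1 (1.62), chs-1 (1.07), clec-266 (1.87), cpg-1 (1.18), dod-24 (3.97), egl-3 (1.07), fasn-1 (1.61), folt-2 (4.94), lin-41 (1.01), lys-7 (2.54), nsy-1 (0.89) and octr-1 (0.64).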

How the results depend on the processing

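Called genes at 15 °C numbered 8102, and under other tools, scalings, filters and pseudocounts 6787 (a value of at least 50) to 8091. Leaving out 1 library gave 7356 to 7958. Centring on length, chosen after seeing the data, gave 7169, of which 6035 were among the 8102 with the same sign. Differences from 20 °C numbered 2639 to 3319 and those from 25 °C 8661 to 9114 when 1 library was left out. Of 225 named genes with a length, 215 kept call and direction under length centring, 8 lost the call, 1 gained it, and tir-1 changed sign (-0.0017). A pairing of libraries by replicate number was not seen, but this check cannot show that they were unpaired. Deviations of same-numbered libraries correlated at 0.19, 0.09, -0.06, -0.0066 and 0.04, and not every library correlated best with its own number. Replicate 1 of the wild type and replicate 1 of the mutant did correlate best with each other. With a replicate block, 7881 genes were called at 15 °C, 2868 differed from 20 °C and 8904 from 25 °C, and 3 of 227 named genes lost their call: vit-2 (adjusted p = 0.0637), perm-4 (0.0585) and sulp-2 (0.0535). The filter sets which low genes are tested: chemoreceptors called higher numbered 38 of 182 tested, 90 of 1307 without the filter and 8 of 26 with the stricter one. Polyadenylated RNA of whole animals does not show which tissue a change came from. Single members also moved: the lower sperm gene was not called with edgeR and TMM, DESeq2, no filter, length centring or without wild-type replicate 2 or 5 or mutant replicate 1 or 5, and the higher members of the fatty acid binding, proteasome, cytosolic ribosome, antioxidant and small heat shock lists, 1 or 2 each, changed in number when single libraries were left out (0 to 1, 1 to 3, 1 to 4, 1 to 2 and 0 to 1).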
